A study of Mus musculus with 62 samples.

Results

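Cerebellum from mice carrying cachectic melanoma cells (CAC) was compared with cerebellum from mice carrying non-cachectic melanoma cells (NCAC) 2 wk after injection, the earliest time of the series. The comparison used the 5 CAC and 5 NCAC libraries whose labels give 2 weeks, 10 of the 62 libraries in all, and the members were set by these labels and by no measured value. Bulk RNA of cerebellum was sequenced in CAC, NCAC and mock-injected mice at 2, 4, 6 and 8 wk, with 5 libraries in each group and week except CAC at 8 wk, which had 7. All mice were female and labelled as 2 months old. The sources disagree on strain: every sample carries C57BL6/J, while NCI Ath/nude mice are named in the series design. By their descriptions both groups were injected with melanoma cells and differed in which cells these were. The extraction protocol attached to every sample speaks instead of LLC cells and of 3 weeks, which does not match these descriptions, and groups and times were taken from the descriptions and titles. The labels call the libraries biological replicates without tying any library to a named animal, so p-values measure the spread between libraries. That spread was estimated over all 12 groups of the series. No label gives the melanoma line, tumour size, body weight, food intake or hour of tissue collection.

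Cachexia is the wasting of muscle and fat that accompanies some tumours. Circulating signals that reach the brain, such as inflammatory cytokines and glucocorticoids, contribute to it. Most cells of the cerebellum also run a molecular clock. In its loop the activators BMAL1 (Arntl), CLOCK and NPAS2 bind E-box DNA elements and switch on Period, Cryptochrome and REV-ERB (Nr1d1, Nr1d2) genes, whose proteins then repress the activators. Transcription of Per1 and Per2 is also induced directly by glucocorticoids.

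Cerebellar markers were high in all 10 libraries. The Purkinje cell gene Pcp2 lay between 424.2 and 535.5 TPM (transcript abundance normalized for length and library total), and the granule cell gene Gabra6 between 917.5 and 1188 TPM. The choroid plexus genes differed between libraries of the same group, with Ttr, the choroid plexus thyroxine carrier, between 13.01 and 5610 TPM in CAC and between 4.34 and 5129 TPM in NCAC. Brainstem genes were higher in 3 CAC libraries, where they summed to 43.99, 65.8 and 46.3 TPM in replicates 1, 3 and 4, against 16.8 and 21.5 TPM in replicates 2 and 5, 20.1 to 29.4 TPM in NCAC and 19.8 to 27.98 TPM in mock. All 14 genes of that list, among them the serotonergic gene Tph2 and the hindbrain gene Hoxb3, had a higher mean in CAC than in NCAC, and none was at 0 in all 10 libraries. With the mean of its 3 tested genes as a covariate, an alternative added after seeing the data, limma again called 0 genes at 2 wk, with 1103 at an unadjusted p under 0.05. Mitochondrially encoded RNA made up 18.5% to 20.9% of TPM, and Pearson correlations between libraries across genes ran from 0.981 to 0.994. TPM carries no read depth, which is therefore not known for any library. In bulk RNA, fewer cells of a type and less RNA per cell cannot be told apart.

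No single gene passed the test between the 2 melanoma groups at 2 wk. Limma called 0% of the 14399 genes tested at an adjusted p of 0.05, and the smallest adjusted p was 0.279. At an unadjusted p of 0.05 there were 987 genes, 597 of them higher in CAC (4.15%) and 390 lower (2.71%). The libraries of the groups did not overlap for 120 genes with all CAC libraries higher (0.833%) and for 85 with all lower (0.59%). The log2 fold change was below 0 for 47% of genes, the median over all genes was 0.005 and the median standard error was 0.07. Only 114 genes differed by 1.5-fold or more, on the scale of log2(TPM + 1). The 60.5% share of higher genes among those at an unadjusted p under 0.05 fell to 53.6% with median-of-ratios scaling and to 48.7% with quantile normalization, so no excess of higher genes was independent of the scaling.

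The clearest pattern among named groups lay in the clock loop. Every tested gene of its repressing (negative) arm, 10 of 10, was lower in CAC than in NCAC, 7 of them at an unadjusted p under 0.05, with a median log2 difference of -0.245. Of 9 clock output genes 8 were lower, 7 at an unadjusted p under 0.05, with a median of -0.276. The activators Arntl, Npas2 and Clock were higher in CAC, each at an unadjusted p under 0.05. Of the 7 genes in their positive-arm list these were the 3 higher ones, and 4 were lower, with a median of -0.026. Without any 1 library that median ran from -0.047 to 0.063. None of these genes passed adjustment over all genes, the adjusted p being 0.611 or more for every clock gene.

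The sequence upstream of the clock genes is shown because the loop acts through short motifs there. RefSeq promoter windows, 250 bases before to 50 after a start, were found for 21 of the 26 clock genes tested (build GRCm38.p6). Per2, Bhlhe40, Wee1 and Pdp1 are named only. The windows were searched on both strands for the E-box CACGTG, the D-box TTATGTAA or TTACGTAA and the cyclic AMP element TGACGTCA, no one of which contains another. The windows of 4 of 8 repressing-arm genes (Per1, Ciart, Cry1 and Bhlhe41) and 3 of 7 output genes (Coq10b, Tef and Tspan4) held an E-box, against 0 of 6 positive-arm genes. A gene can have several, partly overlapping windows, and of the 28 windows of the clock genes 8 held an E-box, 2 a D-box and 1 a cyclic AMP element. Over all 32851 promoter windows the share was 7.15% for the E-box, 1.06% for the D-box and 1.79% for the cyclic AMP element. The windows of 4 genes that were lower in CAC follow, with the matches in capitals. Per1 is read from chr11:69098699-69098998 on the plus strand, Ciart from chr3:95882179-95882478 on the minus strand, Per3 from chr4:151044616-151044915 on the minus strand and Coq10b from chr1:55052520-55052819 on the plus strand. The window shown for Per1 held 1 E-box, that of Ciart 3 E-boxes, that of Per3 2 D-boxes, and that of Coq10b 1 E-box and 1 D-box read on the opposite strand. Another Per1 window, chr11:69099902-69100201, held no match and is not shown. A match describes the letters and does not show that a factor binds.
Per1: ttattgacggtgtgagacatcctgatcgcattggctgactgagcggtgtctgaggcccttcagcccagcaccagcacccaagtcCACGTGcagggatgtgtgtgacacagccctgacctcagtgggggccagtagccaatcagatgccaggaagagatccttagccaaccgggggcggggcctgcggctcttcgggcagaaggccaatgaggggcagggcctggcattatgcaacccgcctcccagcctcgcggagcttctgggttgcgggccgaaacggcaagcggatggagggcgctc
Ciart: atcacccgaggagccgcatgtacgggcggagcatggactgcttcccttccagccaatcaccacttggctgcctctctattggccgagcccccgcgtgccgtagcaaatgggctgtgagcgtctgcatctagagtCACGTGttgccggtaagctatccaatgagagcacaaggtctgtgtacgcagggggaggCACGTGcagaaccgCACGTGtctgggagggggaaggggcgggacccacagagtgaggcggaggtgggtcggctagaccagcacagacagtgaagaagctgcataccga
Per3: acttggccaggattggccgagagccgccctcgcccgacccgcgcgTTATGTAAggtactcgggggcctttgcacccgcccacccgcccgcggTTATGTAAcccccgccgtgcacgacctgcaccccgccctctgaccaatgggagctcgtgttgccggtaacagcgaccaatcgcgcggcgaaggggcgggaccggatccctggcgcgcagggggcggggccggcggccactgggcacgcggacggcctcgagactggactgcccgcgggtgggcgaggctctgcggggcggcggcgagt
Coq10b: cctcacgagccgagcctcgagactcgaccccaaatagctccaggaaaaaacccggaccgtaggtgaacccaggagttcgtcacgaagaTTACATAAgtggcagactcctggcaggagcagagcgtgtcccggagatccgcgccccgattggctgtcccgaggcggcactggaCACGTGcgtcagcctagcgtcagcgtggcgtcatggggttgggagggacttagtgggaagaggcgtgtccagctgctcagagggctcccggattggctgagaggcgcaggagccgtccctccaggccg

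Per1 (chromosome 11, 69095217 to 69109960, GENCODE M21) encodes a period repressor. It read 57.8, 66.3, 54.5, 31.4 and 53.7 TPM in CAC replicates 1 to 5 and 73.2, 102.2, 87.6, 114 and 77.7 TPM in NCAC. Every CAC library lay below every NCAC library, and the log2 difference was -0.80 ± 0.28 (SE; unadjusted p = 0.00659, adjusted p = 0.62). The mock libraries lay between 40.5 and 64.6 TPM, in the range of CAC.

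Per2 (chromosome 1, 91415982 to 91459324) encodes the second period repressor. Its TPM was 24.4, 32.9, 27.1, 16.3 and 15.9 in CAC and 61.0, 49.0, 44.2, 34.2 and 48.0 in NCAC. These groups did not overlap either, at a log2 difference of -1.02 ± 0.38 (unadjusted p = 0.0104, adjusted p = 0.621), with mock between 11.7 and 30.3 TPM. Of the 10 repressing-arm genes these were the 2 whose groups were separate.

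Per3 spanned 22.6 to 28.8 TPM in CAC (median 23.0) and 27.7 to 33.7 TPM in NCAC (median 30.7), a log2 difference of -0.33 ± 0.11 (unadjusted p = 0.00403). Ciart, a repressor of the BMAL1 complex, read 19.2, 38.0, 21.8, 15.7 and 15.5 TPM in CAC and 36.4, 32.1, 28.7, 38.9 and 35.6 TPM in NCAC. CAC replicate 2 alone lay within the NCAC range, and the log2 difference was -0.69 ± 0.25 (unadjusted p = 0.00895). The REV-ERB repressor Nr1d2, the cryptochrome Cry2 and the repressor Bhlhe41 were lower by smaller amounts, at -0.22 ± 0.08, -0.18 ± 0.07 and -0.25 ± 0.10, with unadjusted p of 0.00544, 0.0182 and 0.0146. Cry1 (-0.24 ± 0.15), Bhlhe40 (-0.09 ± 0.11) and Nr1d1 (-0.05 ± 0.10) were at unadjusted p of 0.122, 0.417 and 0.638.

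Among the outputs, Dbp is a transcription factor that binds the D-box. It read 149.1, 235.2, 181.7, 130.1 and 113.9 TPM in CAC and 195.5, 212.9, 261.9, 277.9 and 244.6 TPM in NCAC, a log2 difference of -0.59 ± 0.19 (unadjusted p = 0.00242). As for Ciart, CAC replicate 2 was the only CAC library inside the NCAC range. The related factors Hlf (-0.31 ± 0.11) and Tef (-0.32 ± 0.12) were also lower, at unadjusted p of 0.00573 and 0.00932.

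Coq10b, a coenzyme Q binding protein, lay between 36.3 and 49.9 TPM in CAC and between 50.5 and 72.9 TPM in NCAC without overlap, at -0.50 ± 0.18. Wee1, a cell cycle kinase, lay between 18.5 and 23.1 TPM in CAC and between 23.2 and 27.0 TPM in NCAC, also without overlap, at -0.28 ± 0.10. The deubiquitinase Usp2 (-0.25 ± 0.12) and Nampt (-0.13 ± 0.06), the rate-limiting enzyme of NAD salvage, were at unadjusted p of 0.0488 and 0.0334. Tspan4 alone in this group was higher in CAC, at 0.088 ± 0.073.

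The activators went the other way. Arntl, which encodes BMAL1, read 49.7, 36.1, 40.1, 53.7 and 61.9 TPM in CAC and 37.3, 36.4, 37.7, 34.4 and 36.3 TPM in NCAC. The NCAC libraries lay close together, 4 of 5 CAC libraries lay above all of them, and CAC replicate 2 was inside their range, at a log2 difference of 0.37 ± 0.13 (unadjusted p = 0.00537, adjusted p = 0.615). Npas2 spanned 2.01 to 3.87 TPM in CAC and 1.19 to 2.49 TPM in NCAC (0.45 ± 0.16), and Clock spanned 33.3 to 45.9 and 33.4 to 35.5 TPM (0.20 ± 0.08). Mean TPM of Arntl, Npas2 and Clock was 48.3, 2.94 and 39.9 in CAC and 36.4, 1.885 and 34.4 in NCAC. In mock it was 50.6, 2.50 and 41.4, nearer to CAC for each gene. Of the other genes listed in this positive arm, the nuclear receptor gene Rora was at -0.08 ± 0.04 (unadjusted p = 0.0475), and its relative Rorb and the D-box repressor gene Nfil3 were at -0.042 ± 0.079 and -0.026 ± 0.124.

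**Figure D1:**
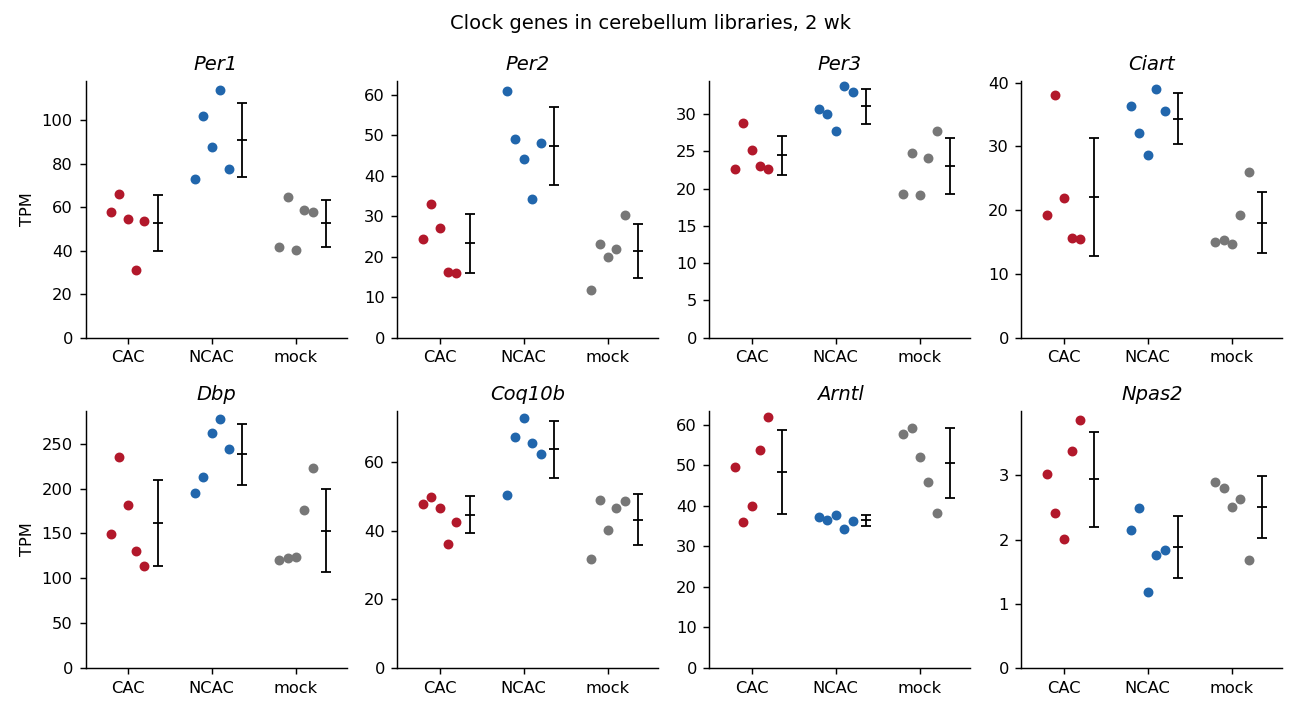
TPM of 8 clock genes in each CAC, NCAC and mock library at 2 wk (points, with 5 libraries per group); the bar beside each group is the mean ± SD. All CAC libraries lie below all NCAC libraries for Per1, Per2 and Coq10b, and CAC replicate 2 stands above the other CAC libraries for Ciart and Dbp.

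Averaged over the repressing arm, log2(TPM + 1) was 5.80, 6.10, 5.86, 5.597 and 5.64 in the CAC libraries and between 6.16 and 6.22 in the NCAC libraries, without overlap. The NCAC libraries were close together (SD 0.025) where the CAC libraries (SD 0.20) and the mock libraries (SD 0.17) were spread. Mock was at 5.69, nearer to CAC. Against the same 5 mock libraries, the median log2 difference of the repressing arm was 0.129 in CAC and 0.396 in NCAC, and that of the outputs 0.079 and 0.382. The CAC and NCAC comparisons share those mock libraries, so they are given side by side only. Limma called 0% of genes in CAC against mock and 0.0139% in NCAC against mock, none of them a clock gene. Without any 1 of the 10 libraries the repressing-arm median stayed between -0.293 and -0.221 with 10 of 10 genes lower, and the output median between -0.34 and -0.225 with 8 of 9 lower. With the brainstem covariate the 2 medians were -0.248 and -0.288.

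The direction of the repressing-arm and output medians at 2 wk was not that of later weeks. The CAC against NCAC median of the repressing arm was 0.233 at 4 wk, 0.142 at 6 wk and 0.195 at 8 wk. That of the outputs was 0.124, 0.088 and 0.147. Not every clock gene turned. Mean TPM of Dbp was again lower in CAC at 6 and 8 wk (140.6 and 155 against 190.2 and 185.7 in NCAC), as was that of Nr1d1 (163.5 and 187.1 against 181 and 191). Npas2 stayed higher in CAC at each later week (3.78 against 2.26 TPM at 8 wk). The change from 2 to 8 wk, tested as an interaction across all genes, was called for Per1 (log2 1.498 ± 0.384, adjusted p = 0.02), Per2 (1.94 ± 0.52, adjusted p = 0.0268), Cry1 (0.73 ± 0.21, adjusted p = 0.0378), Wee1 (0.50 ± 0.14, adjusted p = 0.0325) and Hlf (0.50 ± 0.15, adjusted p = 0.0396). It was called for 2.67% of all genes with the difference higher at 8 wk and for 1.31% with it lower. The 2 wk libraries in which the clock genes stood out also enter this test, so these calls are no separate evidence for the 2 wk difference. Per1 went from 52.7 ± 12.9 (SD, n = 5) to 106.9 ± 22.0 TPM (SD, n = 7) in CAC and from 90.9 ± 17.0 to 66.0 ± 16.0 TPM (SD, n = 5 each) in NCAC. Mock moved between weeks as well. Its Per1 mean was 52.7 ± 10.8, 73.1, 85.3 and 66.2 ± 23.6 TPM at 2, 4, 6 and 8 wk. Its Per2 mean was 21.4, 34.7, 42.4 and 24.6 TPM at the same weeks. The part of collection hour, which no label gives, was not tested. The Per1 call was lost without CAC replicate 4 at 2 wk (adjusted p = 0.0527) or NCAC replicate 2 at 8 wk (adjusted p = 0.0571). Per2 lost it without either of these, CAC replicate 5 at 2 wk or NCAC replicate 2 at 2 wk (adjusted p of 0.0501 to 0.0571), and Cry1, Hlf and Wee1 lost it without 14, 12 and 8 of the 22 libraries. These 3 were also not called without a filter on low values (adjusted p of 0.0645, 0.0668 and 0.0558), nor was Hlf with median-of-ratios scaling (0.0568) or quantile normalization (0.0559). From 2 to 4 wk and from 2 to 6 wk, 0% of genes were called.

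**Figure D2:**
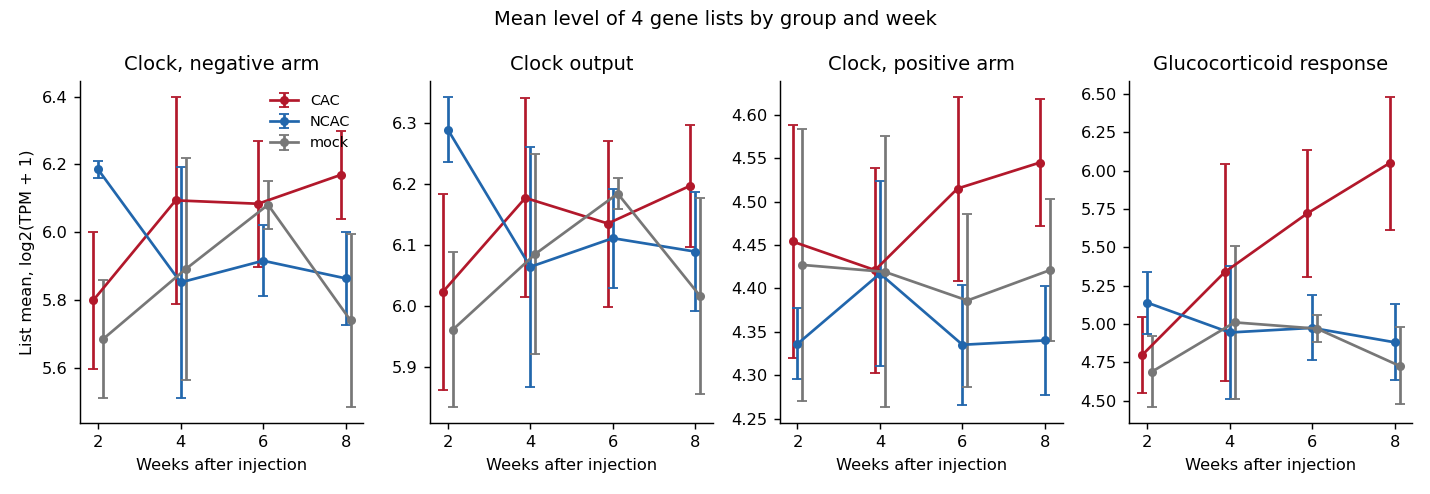
Mean log2(TPM + 1) of 4 gene lists (y axis, scale differing between panels) at each week (x axis) in CAC, NCAC and mock; points are group means and bars are SD over 5 libraries, or 7 for CAC at 8 wk. At 2 wk NCAC lies above CAC and mock for the repressing (negative) arm (6.19 against 5.80 and 5.69), the outputs and the glucocorticoid response, and at 8 wk CAC lies above both.

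Genes that respond to glucocorticoids, the adrenal stress hormones that act through a nuclear receptor, were measured as a separate group that also holds Per1. In CAC 23 of 25 lay below NCAC, with a median log2 difference of -0.296. Only Per1, Dusp1 and Tsc22d3 reached an unadjusted p of 0.05. Dusp1, a phosphatase of MAP kinases, read 22.4, 21.05, 52.95, 17.8 and 28.2 TPM in CAC and 27.6, 46.5, 61.1, 78.4 and 78.2 TPM in NCAC, with overlapping groups and a log2 difference of -1.02 ± 0.47. Tsc22d3, the glucocorticoid-induced leucine zipper, spanned 56.5 to 80.5 TPM in CAC and 77.6 to 109.7 TPM in NCAC (-0.46 ± 0.22). Fkbp5, a receptor co-chaperone, spanned 4.27 to 8.08 TPM in CAC and 5.83 to 14.4 TPM in NCAC (-0.40 ± 0.36, unadjusted p = 0.28).

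The list's median was -0.179 without NCAC replicate 2 and between -0.439 and -0.228 without any other library, and 10 of its genes reached an unadjusted p of 0.05 when only the CAC and NCAC libraries of 2 wk were fitted. The same list had a median of 1.07 at 8 wk, when 22 of 25 genes were called higher in CAC, against 7.76% of all genes. The glucocorticoid receptor and its regulators had a median of -0.025 at 2 wk, 5 of 9 being lower.

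Groups induced by activity or stress also leaned lower in CAC than in NCAC, with few single genes past an unadjusted p of 0.05. Against mock, the median of the immediate early genes was -0.122 in CAC and 0.202 in NCAC. That of the heat shock chaperones was -0.038 and 0.051, and that of the unfolded protein and integrated stress genes -0.036 and 0.106. In each of these lists the CAC median was the nearer to mock. Of 18 immediate early genes 16 were lower (median -0.314). Jun, an AP-1 subunit, was at -0.33 ± 0.12 (unadjusted p = 0.0105), whereas Ier5 was higher at 0.24 ± 0.10 (unadjusted p = 0.0166). When only the CAC and NCAC libraries of 2 wk were fitted, 8 immediate early genes and 6 heat shock genes were lower at an unadjusted p under 0.05, in place of 1 and 3. Of 20 heat shock chaperones 18 were lower (median -0.098), with Hspa1a, the inducible HSP70, at -0.44 ± 0.17, Hsp90aa1 at -0.10 ± 0.04 and Hspa4l at -0.08 ± 0.04. Of 23 genes of the unfolded protein and integrated stress responses 20 were lower (median -0.093, and -0.156 without NCAC replicate 4). Herpud1, which acts in degradation of endoplasmic reticulum proteins, lay between 73.5 and 92.1 TPM in CAC and between 94.3 and 108 TPM in NCAC without overlap (-0.22 ± 0.09). Ppp1r15a, a phosphatase subunit acting on eIF2α, was at -0.22 ± 0.10, and Eif2ak3, which encodes the kinase PERK, at -0.14 ± 0.04.

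**Figure D3:**
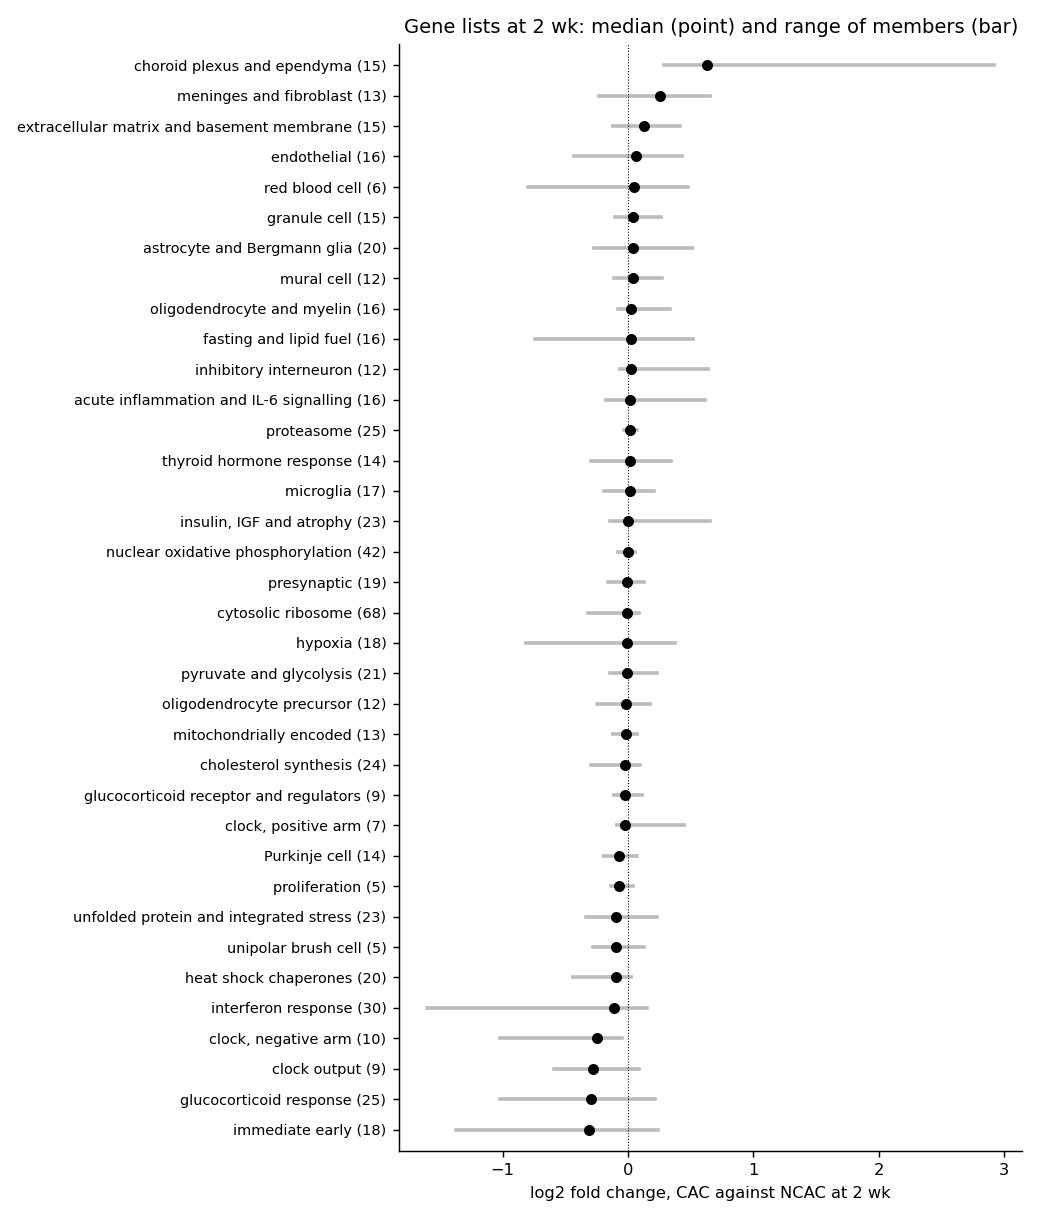
Log2 fold change of CAC against NCAC at 2 wk (x axis) for the gene lists with at least 5 tested members (y axis, number tested in brackets); the point is the median member and the bar runs from the lowest to the highest member. The immediate early, glucocorticoid and 2 clock lists have the lowest medians, from -0.314 to -0.245, and choroid plexus the highest at 0.63.

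The smallest unadjusted p belonged to Dcun1d5 (chromosome 9, 7184520 to 7208205), which promotes attachment of NEDD8 to cullins. It read 69.7, 70.5, 69.1, 68.9 and 70.5 TPM in CAC and 76.2, 75.8, 78.8, 80.3 and 78.9 TPM in NCAC. The groups did not overlap, but the difference was small, at -0.16 ± 0.03 (unadjusted p = 1.94e-05, adjusted p = 0.279), and mock spanned 68.7 to 76.3 TPM. It was called with median-of-ratios scaling (adjusted p = 0.0219), quantile normalization (0.0295) and sample weights (0.0471).

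Other low-p genes that were lower in CAC without overlap were Gdap10, a long noncoding RNA, at -0.64 ± 0.15, Gpr137c at -0.30 ± 0.08, Ankrd9 at -0.22 ± 0.06, Far2, a fatty acyl reductase, at -0.22 ± 0.06, and Gdpd1 at -0.11 ± 0.03. Fmo2, a flavin monooxygenase, spanned 1.18 to 3.05 TPM in CAC and 3.78 to 7.27 TPM in NCAC, the largest difference among these genes at -1.09 ± 0.35. Cntnap4 (-0.30 ± 0.07), a neurexin-family adhesion protein, and Txndc16 (-0.19 ± 0.06) overlapped between the groups. Mpc1, a subunit of the mitochondrial pyruvate carrier, was at -0.15 ± 0.04 with overlap. It was also 1 of the 2 genes that limma called higher in NCAC than in mock (adjusted p = 0.0259). Vcan, a proteoglycan of oligodendrocyte precursors, spanned 9.93 to 11.5 TPM in CAC and 11.8 to 14.3 TPM in NCAC (-0.25 ± 0.09).

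Among genes higher in CAC, Mmp14, a membrane-anchored matrix protease, had the largest difference of the named genes whose groups were separate. It read 23.9, 18.1, 19.2, 26.6 and 25.7 TPM in CAC and 12.1, 14.8, 16.2, 17.1 and 11.8 TPM in NCAC, a log2 difference of 0.62 ± 0.17 (unadjusted p = 5.82e-04, adjusted p = 0.52). Mock spanned 15.1 to 26.4 TPM and overlapped both. Sapcd1 spanned 1.62 to 2.73 TPM in CAC and 0.844 to 1.54 TPM in NCAC (0.59 ± 0.16). Without overlap but by less were Ptpre, a tyrosine phosphatase (0.24 ± 0.06), Plxna1, a semaphorin receptor (0.21 ± 0.05), Usp6nl (0.17 ± 0.05), the mitochondrial ribosomal gene Mrpl13 (0.15 ± 0.04), Ube2e1, a ubiquitin-conjugating enzyme (0.12 ± 0.03), and the synaptic vesicle gene Syn2 (0.12 ± 0.04). Vat1l (0.33 ± 0.09), Hap1 (0.28 ± 0.07) and the potassium channel gene Kcnc4 (0.24 ± 0.06) overlapped between the groups.

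Matrix and vessel-associated genes leaned higher in CAC. The basement membrane collagen genes Col4a1 and Col4a2 lie head to head on chromosome 8 and overlap at their starts. Col4a1 read 15.6, 10.8, 13.3, 13.5 and 16.1 TPM in CAC and 10.6, 10.3, 10.2, 10.6 and 10.4 TPM in NCAC, without overlap (0.37 ± 0.11, unadjusted p = 0.00188). Col4a2 spanned 9.19 to 12.97 TPM in CAC and 7.15 to 9.81 TPM in NCAC (0.42 ± 0.12, unadjusted p = 6.86e-04). The basement membrane list had 12 of 15 genes higher (median 0.127).

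Of 13 meningeal and fibroblast genes 12 were higher (median 0.251), with the growth factor Igf2 at 0.65 ± 0.24, the adhesion protein gene Vtn at 0.25 ± 0.09 and Col1a1 at 0.34 ± 0.16. The tight junction gene Cldn5 (0.43 ± 0.17) and the endothelial adhesion gene Esam (0.14 ± 0.06) led 16 endothelial genes, 11 of them higher (median 0.064). Both the meningeal and the matrix median rested on NCAC replicate 3, without which they were 0.047, with 7 of 13 higher, and 0.043, with 9 of 15 higher. The matrix median was 0.075 without CAC replicate 3.

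Choroid plexus markers moved in the same direction. All 15 were higher in CAC (median 0.63), but 0 of them reached an unadjusted p of 0.05, and their summed level ran from 170.8 to 6744 TPM in CAC, from 155.2 to 6170 TPM in NCAC and from 873 to 6236 TPM in mock. Without any 1 library the median ran from 0.348 to 0.995 with all 15 higher. The count at an unadjusted p under 0.05 was then 11 without CAC replicate 1, 9 without NCAC replicate 2 or NCAC replicate 4, 3 without CAC replicate 5 and 0 otherwise. Low libraries were present in both groups, 1 of 5 in CAC and 3 of 5 in NCAC reading under 15 TPM for Ttr. With the mean of these markers as a covariate, an alternative added after seeing the data, the median of the matrix list was 0.054, that of the meningeal list 0.243 and that of the repressing clock arm -0.246. The choroid plexus list itself, whose mean is the covariate, was at -0.045, near 0 by construction.

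A few of the largest fold changes came from genes whose level differed by steps between libraries of 1 group. H2-D1, a classical MHC class I gene, read 16.1, 14.4, 97.2, 100.7 and 94.8 TPM in CAC and 193.6, 91.7, 186.9, 103.5 and 180.5 TPM in NCAC (-1.60 ± 0.64). The MHC pseudogene H2-Bl read 17.5, 18.8, 8.47, 8.94 and 8.30 TPM in CAC and 0.343, 8.21, 0.389, 10.1 and 0.172 TPM in NCAC (2.10 ± 0.94). Both are on chromosome 17, and the libraries low for H2-Bl were those high for H2-D1. Reads of MHC genes can be split between near-identical copies, so these values are uncertain. The sources leave the strain of the mice unclear, and the part of genetic background in these steps was not tested. H2-M5, in the same region, was at 1.15 ± 0.48.

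Arsj, a sulfatase gene, was between 8.12 and 17.2 TPM in every CAC library and read 0.0499, 20.5, 1.24, 0.0497 and 0.0250 TPM in NCAC (2.70 ± 1.10). Capn11, a calpain gene, was under 1 TPM in all NCAC libraries and in CAC replicate 2, and between 11.8 and 20.3 TPM in the other 4 (2.64 ± 0.96). Tuba1c, a tubulin gene, was at 84.2 TPM in 1 CAC library and at most 6.34 TPM in the other 4, and between 67.5 and 83.3 TPM in 4 NCAC libraries with 4.90 TPM in the fifth (-2.47 ± 1.23). Mock libraries spanned both levels of each gene, for example 0.0232 to 23.9 TPM for Arsj and 0.820 to 20.5 TPM for Capn11. Dynlt1a (-1.43 ± 0.44) and the ribosomal gene Rpl21 (-0.32 ± 0.12) have near-identical copies, so their counts are uncertain as well. Slc18a2, the vesicular monoamine transporter, was between 3.72 and 4.35 TPM in CAC replicates 1, 3 and 4, the libraries with more brainstem RNA, and at most 1.16 TPM in the other CAC and all NCAC libraries (0.94 ± 0.33), while Dbh, a marker of noradrenergic brainstem neurons, spanned 0.0888 to 7.82 TPM in CAC and 0.728 to 2.32 TPM in NCAC. With the brainstem covariate the Slc18a2 difference was 0.55.

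**Figure D4:**
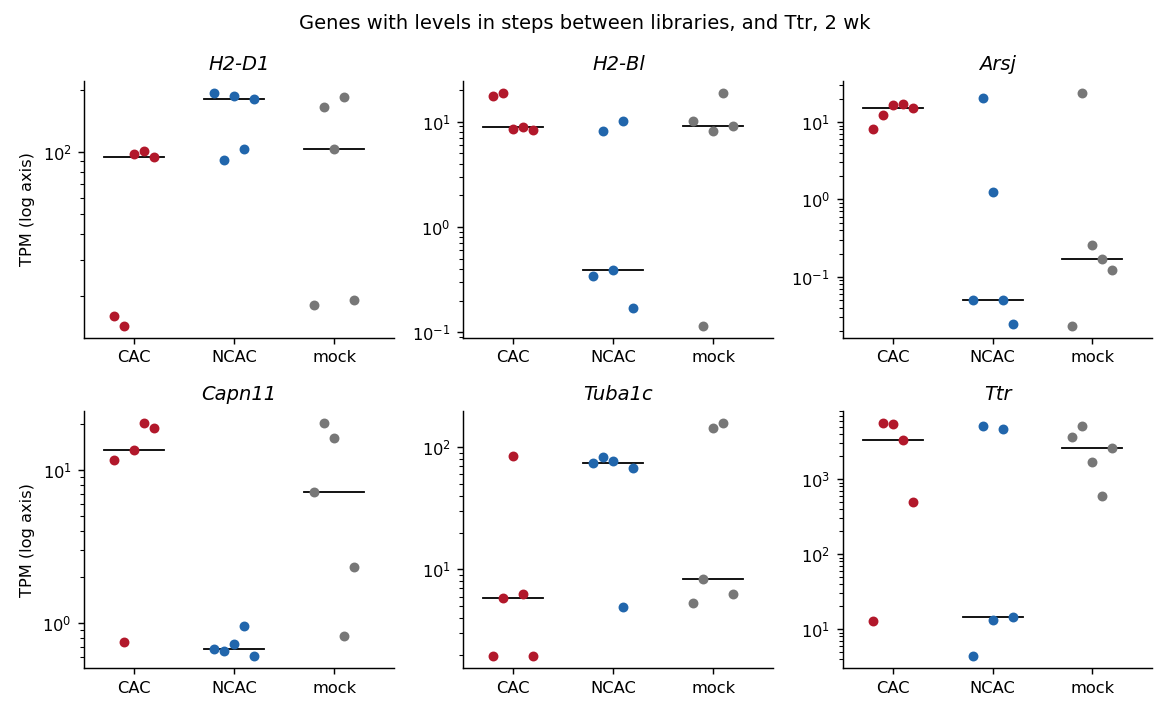
TPM on a log axis of H2-D1, H2-Bl, Arsj, Capn11, Tuba1c and Ttr in each CAC, NCAC and mock library at 2 wk; the line is the group median over 5 libraries. Levels differ by steps within groups, and mock libraries hold both high and low values of each gene except Ttr, which is at 600.9 TPM or more in mock.

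Between CAC and NCAC no gene of the inflammation list was called at 2 wk. Lrg1, a secreted glycoprotein induced by interleukin-6, read 1.65, 2.30, 6.64, 2.45 and 2.57 TPM in CAC and 1.35, 1.52, 0.969, 1.77 and 2.00 TPM in NCAC. The groups overlapped, the log2 difference was 0.62 ± 0.25 (unadjusted p = 0.0187, adjusted p = 0.649), and mock spanned 1.71 to 2.91 TPM. Lrg1 was the only gene called at 4 wk (0.00694% of genes). Among 16 inflammation genes the median was 0.019 at 2 wk and 0.574 at 8 wk, when 11 were called higher, against 7.76% of all genes. At 2 wk the cytokine receptor subunit Il4ra was at 0.21 ± 0.09 and the kinase Jak2 at -0.18 ± 0.06. Lcn2, an acute-phase iron-chelator binding protein, was at 0.025 ± 0.242.

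Interferon-response genes had a median of -0.114, with 24 of 30 lower. Ifit3b spanned 4.90 to 7.77 TPM in CAC and 8.26 to 12.7 TPM in NCAC, and Ifit3 10.7 to 17.0 and 16.1 to 28.4 TPM (-0.61 ± 0.25 and -0.55 ± 0.26). The interferon median was -0.22 without CAC replicate 1, -0.25 without NCAC replicate 2, -0.038 without CAC replicate 5 and -0.059 without NCAC replicate 4.

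Metabolic and neuronal groups were nearly level. Medians lay within 0.1 of 0 for 30 of the 41 lists, and 14 lists had no member at an unadjusted p under 0.05. The 13 mitochondrially encoded genes had a median of -0.015, 42 nuclear oxidative phosphorylation genes -0.003, 68 cytosolic ribosomal genes -0.006, 24 cholesterol synthesis genes -0.023 and 25 proteasome genes 0.014. Acot2, a mitochondrial acyl-CoA thioesterase, was higher at 0.29 ± 0.12 (unadjusted p = 0.0174) and the monocarboxylate carrier Slc16a1 at 0.24 ± 0.10, while Pdha1 of pyruvate dehydrogenase was at -0.05 ± 0.02. The hypoxia marker Car9 was at 0.37 ± 0.18, Stard4, a cholesterol carrier, at -0.25 ± 0.12 and Ndufv2 of complex I at 0.05 ± 0.03.

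Purkinje cell genes were lower in 13 of 14, with a median of -0.069, and Skor2 (-0.19 ± 0.08) and Car8 (-0.11 ± 0.05) were those at an unadjusted p under 0.05. Granule cell genes had a median of 0.043, inhibitory interneuron genes 0.020 with the GABA-synthesizing enzyme Gad2 at 0.09 ± 0.04, oligodendrocyte genes 0.025 and microglia genes 0.012. Slc1a2, the main astrocytic glutamate transporter, spanned 278.5 to 336.6 TPM in CAC and 265 to 281.9 TPM in NCAC (0.19 ± 0.07). Plcb4 was at -0.11 ± 0.05, the active-zone gene Pclo at -0.16 ± 0.07 and the precursor gene Cspg4 at 0.18 ± 0.09. Of 10 melanocyte genes 6, among them Tyr and Mlana, fell under the filter of 1 TPM, and the 4 tested (Mitf, Pmel, S100a1 and Sox10, the last also an oligodendrocyte gene) had a median of 0.045 with 0 at an unadjusted p under 0.05.

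The differences of 8 wk were not yet visible as a group at 2 wk. At 8 wk limma called 7.76% of genes higher and 4.01% lower in CAC than in NCAC, and at 6 wk 9.45% in either direction. Of the 1117 genes higher at 8 wk, 40.6% were above 0 at 2 wk (median -0.016), and of the 578 lower genes 57.1% were (median 0.012), against 53% of all genes (median 0.005). The same sets had medians of 0.09, 0.173 and 0.246 and of -0.081, -0.154 and -0.257 at 4, 6 and 8 wk. The 8 wk differences come from other libraries than the 2 wk ones, but the variance behind the 8 wk calls was estimated over all groups, those of 2 wk included.

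Of the 10 genes with the largest rise at 8 wk, the lipid droplet gene Plin4 (-0.74 ± 0.59), Map3k6 (-0.48 ± 0.39), Fkbp5, Zbtb16 (-0.65 ± 0.55), Sult1a1 (-0.29 ± 0.39) and Tmem252 (-0.07 ± 0.28) were below 0 at 2 wk. Lrg1, Etnppl (0.13 ± 0.45), Serpina3h (0.05 ± 0.26) and Lcn2 were above 0, and only Lrg1 was at an unadjusted p under 0.05. Of the 10 with the largest fall at 8 wk, the radial and Bergmann glia gene Fabp7 (0.51 ± 0.37), Col2a1 (0.45 ± 0.29), the Wnt inhibitor gene Sost (0.37 ± 0.27), the oligodendrocyte gene Opalin (0.34 ± 0.30), Serpinb1a (0.14 ± 0.20) and Cd70 (0.10 ± 0.28) were above 0 at 2 wk. Ntf3 (-0.02 ± 0.18), Tnc (-0.18 ± 0.31) and Klk6 (-0.26 ± 0.27) were below. Gkn3, an arterial endothelial gene, was below 0 as well, at 3.24 to 9.95 TPM in CAC and 9.69 to 19.5 TPM in NCAC (-0.86 ± 0.35, unadjusted p = 0.019).

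The difference between groups changed from 2 to 8 wk for 572 genes, 384 upward and 188 downward. With other scalings 53.5% and 51.7% of the called genes were upward in place of 67.1%. The 5 largest upward changes were those of Plin4 (3.04 ± 0.80, adjusted p = 0.0228), Zbtb16 (2.65 ± 0.75, adjusted p = 0.0335), Map3k6 (2.49 ± 0.53, adjusted p = 0.00717), Fkbp5 (2.43 ± 0.50, adjusted p = 0.00556) and Hif3a (2.26 ± 0.63, adjusted p = 0.0311). The 5 largest downward were those of Fabp7 (-2.24 ± 0.51, adjusted p = 0.00973), Opalin (-1.67 ± 0.41, adjusted p = 0.0159), Sost (-1.49 ± 0.36, adjusted p = 0.0155), Col2a1 (-1.45 ± 0.40, adjusted p = 0.0292) and Serpinb1a (-1.40 ± 0.28, adjusted p = 0.0042). Leaving out any 1 of the 22 libraries kept the call for Map3k6, Fkbp5, Fabp7, Opalin, Sost and Serpinb1a; Plin4 lost it without NCAC replicate 2 at 2 wk (adjusted p = 0.058), and Zbtb16, Hif3a and Col2a1 lost it without 11, 10 and 7 libraries. Sost was not called with the compared groups alone (adjusted p = 0.0565), and Zbtb16, Hif3a and Col2a1 were not called without a filter on low values (0.0604, 0.0554 and 0.0515). Of these 10 genes only Map3k6, Fkbp5, Fabp7 and Serpinb1a kept the call in the fit with the replicate number as a block as well.

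**Figure D5:**
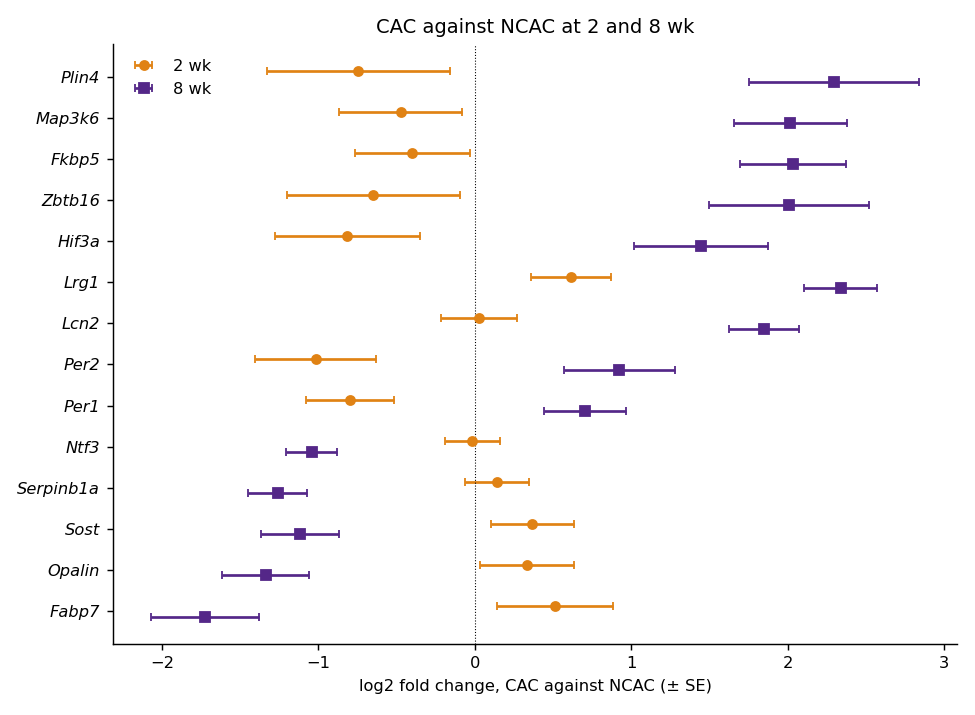
Log2 fold change of CAC against NCAC (x axis, ± SE) at 2 wk (circles) and 8 wk (squares) for 14 genes. Per1 is at -0.80 and 0.70, Per2 at -1.02 and 0.92 and Fkbp5 at -0.40 and 2.03, while Lrg1 is above 0 at both weeks.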

How the data were processed

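The authors deposited a table of TPM (transcript abundance normalized for transcript length and library total) for 47643 gene symbols in 62 cerebellum libraries, 23124 of them at 0 in every library. Per the labels' protocols, RNA was extracted with Trizol and libraries were made with a TruSeq stranded mRNA kit and sequenced on an Illumina NovaSeq instrument. The submitters' processing notes name build mm10. No aligner, counting tool or strand setting is given in the sources used here. The labels' treatment field reads cachectic for every sample, so groups were taken from the sample descriptions and titles.

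Genes with a mean of at least 1 TPM (14399) were tested on log2(TPM + 1), pseudocount 1, with limma 3.58.1 in R 4.3.3 (trended variance), in a fit of all 12 groups that leaves 50 residual degrees of freedom, and with Benjamini-Hochberg adjustment. A difference is CAC minus NCAC. Log2 differences of low genes are understated by the pseudocount. The 41 gene lists (719 of 722 genes in the table, 644 tested) and the comparison itself were chosen with earlier results of these data known. Genes named are, in each direction, the 10 with the smallest unadjusted p at 2 wk and the 5 with the largest fold among those at an unadjusted p under 0.05 (none passed adjustment), up to 3 genes per list at an unadjusted p under 0.05, the 10 largest differences in each direction at 8 wk and the 5 largest changes in each direction from 2 to 8 wk, leaving out clone-named genes, and the clock genes; a few genes that meet this rule are not reported here. The scripts were tested on simulated data. Coordinates are from GENCODE M21 and promoter sequences from RefSeq.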

Additional observations from a re-analysis of the deposited data

Results flagged for a closer look

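Among the 112 genes named, 15 of 224 groups of 5 libraries held a library set apart from the other 4, where chance alone gives about 1 group in 20. In CAC these were replicate 2 for Ciart (38.0 TPM, the others 15.5 to 21.8), Cry2 (88.9 TPM, the others 73.4 to 75.2) and Col4a2 (9.19 TPM, the others 12.2 to 12.97), replicate 3 for Lrg1 (6.64 TPM, the others at most 2.57), Tuba1c (84.2 TPM) and Sapcd1 (1.62 TPM), and replicate 5 for Eif2ak3 (32.8 TPM) and Sost (6.76 TPM). In NCAC they were replicate 1 for Klk6 (58.0 TPM) and Mrpl13 (8.25 TPM), replicate 2 for Arsj (20.5 TPM), replicate 4 for Cspg4 (5.15 TPM), H2-M5 (2.99 TPM) and Tuba1c (4.90 TPM), and replicate 5 for Wee1 (23.2 TPM).

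The CAC against NCAC difference changed from 2 to 8 wk for 39 of the 112 genes. The test was the interaction in limma at an adjusted p under 0.05, which called 572 of all 14399 genes. These shares cannot be compared, because many of the 112 genes were named for values that enter this test. Plin4, Zbtb16, Map3k6, Fkbp5, Hif3a, Fabp7, Opalin, Sost, Col2a1 and Serpinb1a were named for the size of this change. Others were named for their difference at 8 wk or at 2 wk. Of the clock and glucocorticoid genes, the log2 change was 1.498 for Per1, 1.94 for Per2, 0.73 for Cry1, 0.50 for Hlf and for Wee1, 1.27 for Tsc22d3, 2.43 for Fkbp5, 3.04 for Plin4, 2.65 for Zbtb16, 2.49 for Map3k6, 2.26 for Hif3a and 2.23 for Sult1a1. Genes of inflammation and astrocytes gave 1.72 for Lrg1, 1.82 for Lcn2, 1.82 for Serpina3h, 2.16 for Etnppl, 2.02 for Tmem252 and 0.28 for Jak2. Downward changes were -2.24 for Fabp7, -1.67 for Opalin, -1.49 for Sost, -1.45 for Col2a1, -1.40 for Serpinb1a, -1.29 for Cd70 and -1.02 for Ntf3.

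The remaining genes were named for their difference at 2 wk, so the same libraries chose them and enter the test, and the change is no separate evidence for it. They were Ankrd9 (0.30), Cntnap4 (0.61), Dcun1d5 (0.17), Dynlt1a (2.07), Eif2ak3 (0.24), Fmo2 (1.81), Gdap10 (1.08), Gpr137c (0.50), Herpud1 (0.48), Ppp1r15a (0.55), Txndc16 (0.28), Mmp14 (-0.79), Slc16a1 (-0.51) and Syn2 (-0.23). The same holds for Per1, Tsc22d3, Hlf, Jak2 and Lrg1. The clock lists stood out by their 2 wk values, so the change in Per2, Cry1 and Wee1 is no separate evidence either.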

How the results depend on the processing

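The count of genes called at 2 wk was 0 in limma, and 987 genes had an unadjusted p under 0.05. It called 1 gene, Dcun1d5, with median-of-ratios scaling, with quantile normalization and with sample weights, and 0 with each other alternative and without any 1 library. Without a filter on low values 1571 genes were at an unadjusted p under 0.05, over 24519 genes tested, and without any 1 library 717 to 1273 were. The change from 2 to 6 wk was called for 0 genes, for 1100 with sample weights, for 91 with the compared groups alone, and for 0 to 448 without 1 library, the highest without CAC replicate 4 at 6 wk. The change from 2 to 8 wk was called for 572 genes, 340 without a filter, 1405 with sample weights and 238 to 1138 without 1 library. It moved by over 1.5 times without CAC replicates 1 or 4 or NCAC replicates 1 or 2 at 2 wk (367, 328, 380 and 238), and without CAC replicates 3 or 6 or NCAC replicate 2 at 8 wk (1138, 336 and 270). The cause was not tested.

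With the replicate number as a replicate block the counts were 973 at an unadjusted p under 0.05 and 0 called at 2 wk, and 115 for the change from 2 to 8 wk. Per1 and Per2 were not called there (adjusted p of 0.0708 and 0.0901), nor were Plin4, Zbtb16, Hif3a, Opalin, Sost, Col2a1, Cry1, Hlf and Wee1 (0.057 to 0.119). The block was not used for the main values because no label says that a number is shared and 1 of 5 pairs was negative. Correlations of same-numbered CAC and NCAC libraries at 2 wk ran from -0.095 to 0.396, 4 of 5 being above 0.1, those of different numbers averaged -0.039, and 3 of 5 CAC libraries correlated best with their own number. Libraries of different numbers but like choroid plexus content also correlated above 0. For example, CAC replicate 3 and NCAC replicate 2 (Ttr at 5397 and 5129 TPM) were at 0.304. The pair of CAC and NCAC replicate 3, unlike in Ttr (5397 and 13.1 TPM), was at -0.095. CAC replicate 2 and NCAC replicate 5, also unlike in Ttr (5610 and 14.6 TPM), were at 0.036. Whether the numbers mark pairs was not tested apart from choroid plexus content, and the design does not settle it.

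Of the gene values at 2 wk, 9 of 2328 under alternatives turned their sign, all close to 0. Many of these genes were chosen for a small unadjusted p in the same libraries, which makes a turn of sign rare. The count therefore says little about stability. Without 1 library Cdkn1a ranged from -0.176 to 0.035, Mt1 from -0.174 to 0.006, Lcn2 from -0.029 to 0.067 and Nfil3 from -0.079 to 0.063, and Lcn2 was at -0.037 with quantile normalization and -0.016 with the brainstem covariate. Depth is unknown from TPM, so counting error could not be separated from other spread.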
